A study of Sus scrofa with 6 samples.

Results

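Nectins are cell adhesion molecules of the immunoglobulin superfamily. They bind each other across the gap between neighbouring cells and, inside the cell, bind afadin, which ties them to actin and to the cadherins of the adherens junction. In the brain, the pairing of nectin-1 with nectin-3 is known from contacts between axons and dendrites. Nectin-1 and nectin-2 are also receptors through which alphaherpesviruses enter cells, and the pig alphaherpesvirus, pseudorabies virus, can use nectin-1. The poliovirus receptor PVR belongs to the same family.

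The family was taken as 6 genes: NECTIN1, NECTIN2, NECTIN3, NECTIN4, PVR and AFDN, the gene of afadin. Of these, 3 could be matched by symbol to a row among the 18225 Ensembl pig genes of the deposited table, NECTIN1 (ENSSSCG00000015125), NECTIN3 (ENSSSCG00000011933) and AFDN (ENSSSCG00000004018), each on 1 identifier. NECTIN2, NECTIN4 and PVR were not analysed here. NECTIN1 was picked because it was nearly absent from the wild boar libraries, so its difference between the breeds is described and not tested. NECTIN3 and AFDN were taken as its relatives.

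The libraries came from the brains of 3 Rongchang pigs, a domesticated Chinese breed, and 3 wild boars, all 210 days old, with 1 poly(A) RNA library per animal. No treatment is named, nor are the brain region and the origin of the animals. The stated question of the study is how immune response differs between domesticated pigs and wild boars. Values are FPKM (fragment counts divided by transcript length and by the total of mapped fragments), which carry no read counts, so depth is unknown. Genes of neurons, oligodendrocytes and astrocytes were abundant in every library, with the synaptic gene SNAP25 at 786 to 1156 FPKM in Rongchang and 786 to 1102 in wild boar.

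NECTIN1 was present at a low and even level in Rongchang and nearly missing from wild boar. It stood at 2.23, 2.63 and 2.53 FPKM in Rongchang 1, 2 and 3. In wild boar it stood at 0.42 FPKM in animal 1 and was listed at 0 in animals 2 and 3. The groups did not overlap, and the lowest Rongchang value was 5.30 times the highest wild boar value. The difference in log2(FPKM + 1), wild boar minus Rongchang, was −1.62, and because of the zeros its size hung on the pseudocount, with −2.27 at a pseudocount of 0.5 and −3.88 at 0.1. Among all genes of a library, NECTIN1 lay at percentile 39.2 to 41.5 in Rongchang and at percentile 20.8 in wild boar 1.

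NECTIN3, which encodes the preferred binding partner of nectin-1 on the facing cell, did not separate the breeds. It stood at 4.96, 5.42 and 3.60 FPKM in Rongchang against 5.15, 4.04 and 3.65 FPKM in wild boar. The lowest and the highest value were both from Rongchang, so the wild boar values lay wholly within the Rongchang range. The difference in log2(FPKM + 1) was −0.10, with a 95% interval of −0.52 to 0.33 (limma, adjusted p = 0.917 over all genes tested). Its sign turned when each library was scaled to the same median (0.05).

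AFDN, the actin-linking partner shared by all nectins, was the most abundant of the 3 genes. Its level was 10.5, 12.2 and 9.12 FPKM in Rongchang and 8.70, 12.5 and 9.58 FPKM in wild boar. In both breeds the animal numbered 2 had the highest value, and the groups overlapped over most of their range. The difference was −0.05 in log2(FPKM + 1), with a 95% interval of −0.46 to 0.37 (limma, adjusted p = 0.956). After median scaling it was 0.11.

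**Figure D1:**
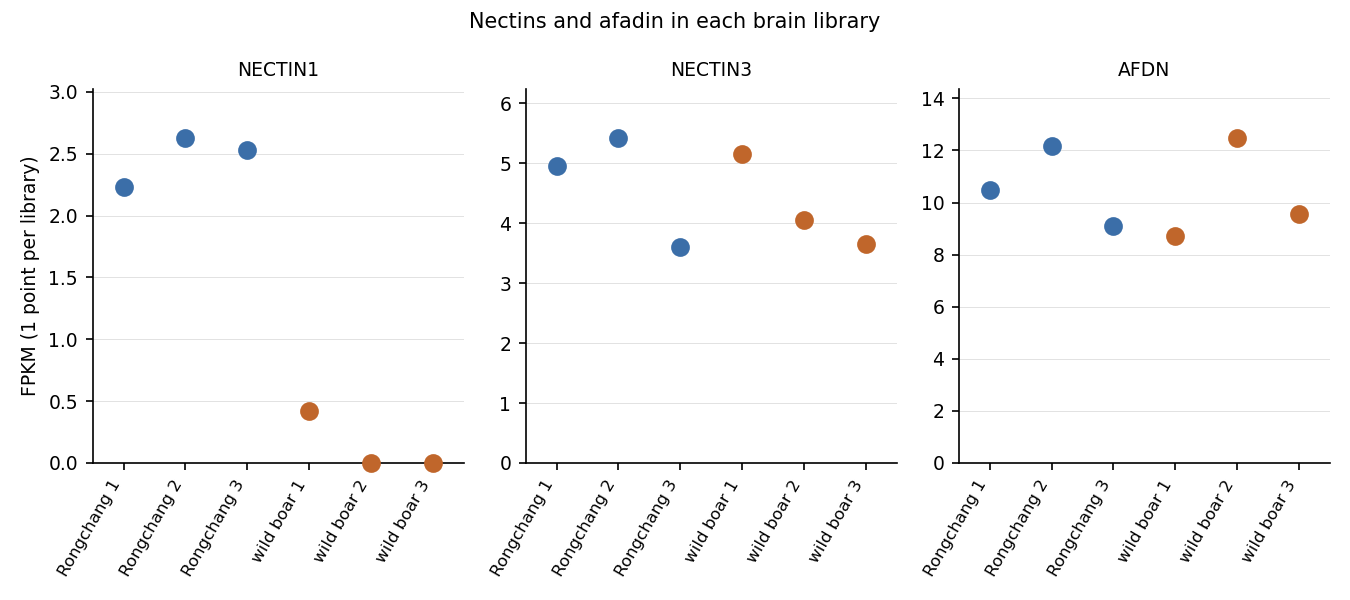
FPKM of NECTIN1, NECTIN3 and AFDN (vertical axes, linear, each with its own range) in the 6 brain libraries, 1 point per library, Rongchang in blue and wild boar in orange. NECTIN1 separates the breeds, from 2.23 or more in Rongchang to 0.42 or less in wild boar, while the points of NECTIN3 and AFDN overlap.

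The order of the 3 genes was the same in every library. FPKM is scaled to transcript length and allows levels of different genes to be compared. AFDN ranged from 8.70 to 12.5 FPKM over the 6 libraries, NECTIN3 from 3.60 to 5.42 and NECTIN1 from 0 to 2.63, so that no neighbours in this order overlapped. NECTIN3 stood at 0.39 to 0.47 of the AFDN level in Rongchang and at 0.32 to 0.59 in wild boar, a wider range that held the Rongchang values. The balance of the nectins differed more. NECTIN1 stood at 0.45, 0.48 and 0.70 of the NECTIN3 level in Rongchang 1, 2 and 3 and at 0.08 in wild boar 1. It made up 31.0%, 32.6% and 41.2% of the summed NECTIN1 and NECTIN3 FPKM in Rongchang and 7.55% in wild boar 1, and was listed at 0 in the other two. The summed level was 7.19, 8.05 and 6.13 FPKM in Rongchang and 5.57, 4.04 and 3.65 FPKM in wild boar, without overlap. The ratio, the share and the sum all contain NECTIN1, which was picked for its low wild boar values. They describe that same difference again, and NECTIN3 alone overlapped.

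The NECTIN1 values were set beside those of other genes at its level. In the whole table, 277 genes stood at 2 to under 3 FPKM in each of the 3 Rongchang libraries. The highest wild boar value of these genes had a median of 2.58 FPKM. NECTIN1 had the lowest, at 0.42, followed by a gene at 1.08, and it was the 1 gene of the 277 that was listed at 0 in any wild boar library. Of 10708 genes with at least 2 FPKM in every Rongchang library, 9 were listed at 0 in 2 or more wild boar libraries, and NECTIN1 was the 1 among them with a symbol. In the other direction, 3 of 10292 genes with at least 2 FPKM in every wild boar library were listed at 0 in 2 or more Rongchang libraries, and 0 of the 3 had a symbol. Where the rule asked only for a Rongchang mean of at least 2 FPKM, 51 genes were at 0 in 2 or more wild boars, and the other 4 with a symbol were the small nucleolar RNA genes SNORA4, SNORA36B, SNORA46 and SNORA66, each of which was also at 0 in at least 1 Rongchang library. NECTIN1 was chosen from these values, so its place among them is a description.

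**Figure D2:**
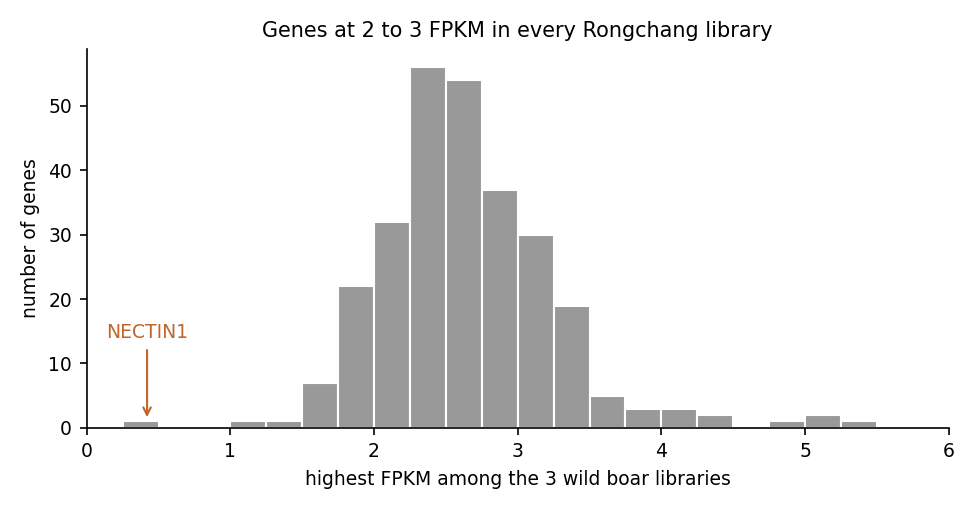
Number of genes (vertical axis) by the highest FPKM among the 3 wild boar libraries (horizontal axis), for the 277 genes at 2 to under 3 FPKM in every Rongchang library. NECTIN1, marked by the arrow at 0.42, lies below the next gene at 1.08 and below the bulk of the genes around the median of 2.58.

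Exact zeros were also listed for genes well above 0 elsewhere. Between 1135 and 1715 genes per library were listed at 0, the most in wild boar 3. Among them were 16 cases of a gene at 0 in 1 library with at least 2 FPKM in each of the other 5, from 2 to 4 per library. HDAC9, a histone deacetylase gene, stood at 3.56 to 5.81 FPKM in 5 libraries and was listed at 0 in wild boar 3. RNF181, a ubiquitin ligase gene, stood at 2.26 to 3.52 FPKM in 5 libraries and was listed at 0 in Rongchang 3. Both were chosen after their values were seen. NECTIN1 was at 0 in 2 libraries and at 0.42 FPKM in the remaining animal of that breed. Such a gene could not meet the rule of 0 in 1 library alone, so NECTIN1 differed from HDAC9 and RNF181 by that rule. Whether its zeros were missing transcripts or failed estimates was not tested.

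Genes near NECTIN1 on the chromosome were read from gene order in RefSeq on Sscrofa11.1, used for order alone. The nearest genes with a row matched by symbol were USP2 and MFRP on one side and TRIM29 and POU2F3 on the other. They lay 5, 6, 2 and 5 genes away, and rows without a symbol could not be placed. USP2, a ubiquitin-specific protease gene, was at 14.2, 16.8 and 15.5 FPKM in Rongchang and 11.6, 16.9 and 13.9 FPKM in wild boar, with overlapping groups. The difference was −0.14 in log2(FPKM + 1) (limma, adjusted p = 0.884). MFRP, TRIM29 and POU2F3 did not exceed 0.293 FPKM in any library and were not tested. By the same rule, the genes nearest to NECTIN3 (CD96, PHLDB2, MORC1 and RETNLB) stood at or under 1.29 FPKM. Of those nearest to AFDN, FRMD1 was tested, at 2.05 to 3.64 FPKM in Rongchang and 2.11 to 3.68 in wild boar (limma, adjusted p = 0.952), while SMOC2, UNC93A and CCR6 lay at or under 0.49 FPKM.

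The genes most like NECTIN1 over the 6 libraries, by Pearson correlation of log2(FPKM + 1) among 8537 other tested genes with a symbol, were CCDC12 (r = 0.993), LMO1 (0.990), CNTROB (0.988), ERMARD (0.987) and ZNF346 (0.982). All 5 were lower in every wild boar than in every Rongchang pig. They were ranked by likeness to NECTIN1, which was picked for its low wild boar values. Their separation by breed therefore follows largely from the ranking and is not a separate result. The 6 points behind each r form 2 groups by breed. Among all genes tested, 11.4% were lower in wild boar without overlap. The differences of the 5 genes were smaller in size than that of NECTIN1. CCDC12, a splicing-associated gene, stood at 11.4 to 12.4 FPKM in Rongchang and 8.34 to 9.48 FPKM in wild boar, a difference of −0.41. LMO1, a LIM-domain transcription regulator, had the next r and a difference of −0.72. ZNF346, a zinc finger gene whose product binds double-stranded RNA, stood at 4.88, 4.94 and 5.34 against 3.20, 3.06 and 3.10 FPKM. In this ranking NECTIN3 came at place 3859 and AFDN at place 6478.

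The wider pathway was read from 7 lists of genes of junctions, signalling, shedding and virus entry, with 68 genes tested. By adjusted p, 0 of the 68 passed in limma in either direction, against 0.0076% of all 13152 genes tested, and adjusted p ran from 0.784 to 0.997. At an unadjusted p under 0.05 there was 1, lower in wild boar, against 6% of all genes (5.42% lower and 0.578% higher in wild boar). In 8 of the 68 (11.8%) the breeds did not overlap, 5 lower and 3 higher in wild boar, against 12.5% of all genes (11.4% lower and 1.12% higher). Their median difference was −0.12, beside −0.13 over all genes, of which 77.9% lay below 0. After median scaling the median over all genes was 0.02, so small negative differences shared by many genes include this shift. At an unadjusted p under 0.05, 4 of the 68 then stood apart, SSX2IP lower and F11R, PDGFRB and HS3ST5 higher, against 246 lower and 248 higher among all genes, where 713 and 76 did before it. With the animal number as a block, 7 of the 68 did, 6 lower and 1 higher, against 17.4% of all genes, and 0 passed by adjusted p. Without wild boar 2 there were 7 of 68, all lower, against 10.1% of all genes, and without Rongchang 3 there were 4, all lower, against 4.52%.

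**Figure D3:**
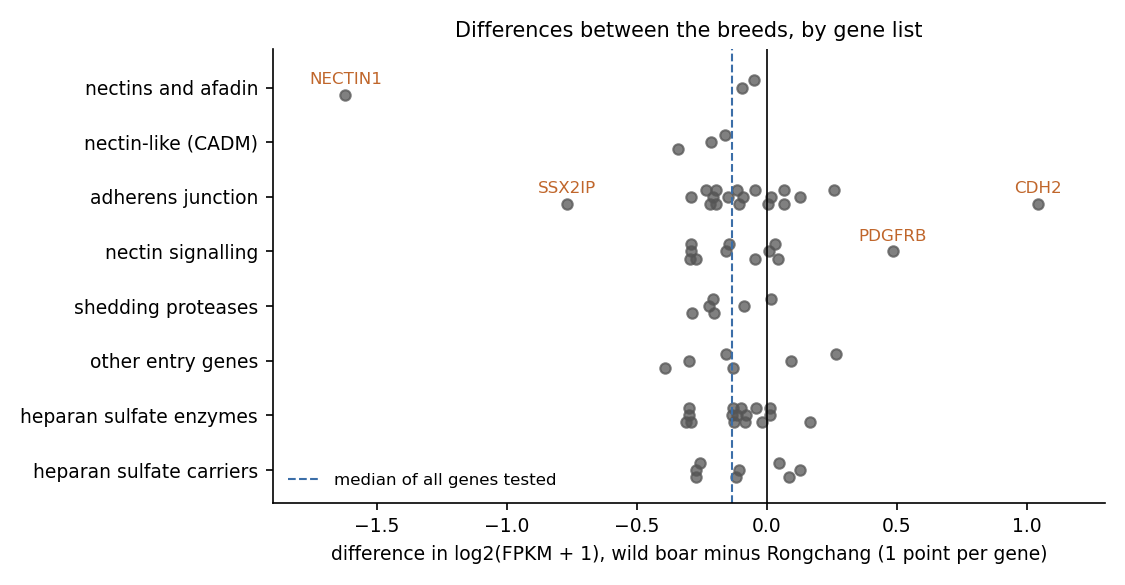
Difference in log2(FPKM + 1), wild boar minus Rongchang (horizontal axis), for each tested gene (1 point) of the family and of the 7 related lists (rows). The dashed line is the median of all genes tested (−0.13). NECTIN1 at −1.62 lies farthest from 0, followed by CDH2 at 1.04, whose value hangs on 1 library, and SSX2IP at −0.77. NECTIN1 was picked for its low wild boar values, so its place follows from that choice, and its size hangs on the pseudocount.

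Among 19 tested partners of afadin and the adherens junction, 0 passed in limma, with 1 below an unadjusted p of 0.05. That gene was SSX2IP, which encodes ADIP, a protein that binds afadin. SSX2IP stood at 18.1, 26.5 and 19.0 FPKM in Rongchang against 9.18, 16.7 and 10.9 FPKM in wild boar. All 3 wild boars lay below all 3 Rongchang pigs, and in both breeds the animal numbered 2 had the highest value, as for AFDN. The difference was −0.77 in log2(FPKM + 1) with a 95% interval of −1.33 to −0.21 (limma, adjusted p = 0.784). F11R, the junctional adhesion molecule JAM-A, did not overlap in the other direction, at 4.97 ± 0.324 FPKM (SD, n = 3) in Rongchang and 6.14 ± 0.487 (SD, n = 3) in wild boar. CTNNB1, the gene of beta-catenin, stood at 95.8 ± 12.3 and 78.3 ± 11.9 FPKM, a difference of −0.29 within overlapping groups.

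The most abundant gene of this list was CDH2, N-cadherin, the main classical cadherin of neural junctions. Its level was 35.3, 643 and 355 FPKM in Rongchang and 417, 549 and 316 FPKM in wild boar. Rongchang 1 stood far below the other 5 libraries. The difference of 1.04 in log2(FPKM + 1) rested on that animal and became −0.20 without it. E-cadherin, CDH1, did not reach the filter, at 1.16, 0.97 and 0.95 FPKM in Rongchang and 0.82, 0.82 and 0.44 FPKM in wild boar. The cadherin gene CDH3 did not reach it either and ran the other way. It stood at 0.62, 0.38 and 0.32 FPKM in Rongchang and 0.80, 2.06 and 1.05 FPKM in wild boar. Neither gene overlapped between the breeds, at levels near or below the filter. Of all genes tested, which do not include them, 12.5% did not overlap (11.4% lower and 1.12% higher in wild boar).

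Of 11 tested genes that act with nectins in signalling, 0 passed in limma, with 0 below an unadjusted p of 0.05. PDGFRB, a growth factor receptor of pericytes that associates with nectin-like molecules, stood at 3.85, 3.42 and 3.18 FPKM in Rongchang against 4.21, 7.58 and 4.50 FPKM in wild boar. The groups did not overlap, and wild boar 2 stood apart at the top. The difference was 0.49 (limma, adjusted p = 0.789), and 0.26 without wild boar 2. VAV2, a guanine nucleotide exchange factor for Rac, lay at 6.85 ± 0.793 FPKM (SD, n = 3) in Rongchang and 5.40 ± 0.364 in wild boar, with no overlap and a difference of −0.29. The integrin gene ITGB3 had a difference of −0.29 within overlapping groups. CDC42, the small GTPase activated downstream of nectins and the most abundant of this list, stood at 139 ± 22.4 and 125 ± 18.4 FPKM.

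**Figure D4:**
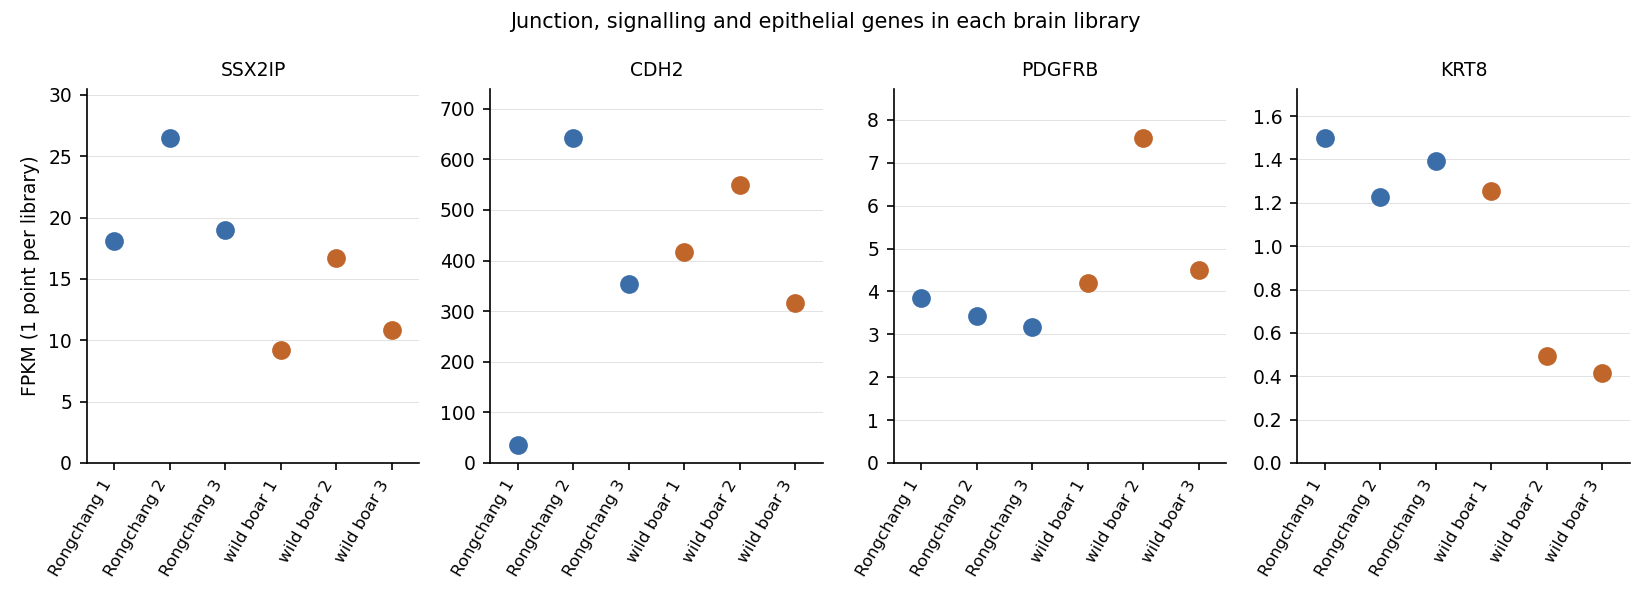
FPKM (vertical axes, linear, each with its own range) of SSX2IP, CDH2, PDGFRB and KRT8 in the 6 libraries, 1 point per library, Rongchang in blue and wild boar in orange. SSX2IP and PDGFRB do not overlap between the breeds, CDH2 is low in Rongchang 1 alone at 35.3, and KRT8 is low in wild boar 2 and 3.

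Nectin-1 can be shed from the cell surface by ADAM10 and then cut by gamma-secretase. Of 6 tested genes of these proteases, 0 passed in limma, with 0 below an unadjusted p of 0.05. PSEN2, a catalytic subunit of gamma-secretase, stood at 15.5, 15.7 and 20.7 FPKM in Rongchang and 12.9, 14.7 and 14.1 FPKM in wild boar, without overlap, a difference of −0.29. The related sheddase gene ADAM17 (−0.21) overlapped, and so did APH1A, the most abundant, at 23.6 ± 7.44 FPKM (SD, n = 3) and 19.7 ± 4.82. ADAM10 itself stood at 15.1 to 16.7 FPKM in Rongchang against 14.1 to 18.0 FPKM in wild boar, with overlap.

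The other genes named for alphaherpesvirus entry include MAG, a myelin glycoprotein, integrin subunits and enzymes that modify heparan sulfate, the sugar chain to which these viruses first attach. Of 15 listed, 6 had a row and were tested, and 0 passed in limma, with 0 at an unadjusted p under 0.05. TNFRSF14 and PILRA, the best known of the receptors outside the nectins, were not analysed here. HS3ST5, a heparan sulfate 3-O-sulfotransferase gene, stood at 3.32, 3.16 and 3.80 FPKM in Rongchang and 4.11, 4.67 and 4.20 FPKM in wild boar. It was higher in every wild boar, by 0.27 in log2(FPKM + 1) (limma, adjusted p = 0.789). MAG, the most abundant, stood at 92.5 ± 17.4 and 70.6 ± 14.9 FPKM (SD, n = 3 each), a difference of −0.39, and the integrin gene ITGB8 had a difference of −0.30. Both overlapped between the breeds.

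Heparan sulfate synthesis was represented by 16 tested enzymes and its carrier proteins by 8, and 0 of either passed in limma, with 0 below an unadjusted p of 0.05. The median difference was −0.11 in both lists, close to that of all genes. XYLT2, which attaches the first sugar of the chain, was the 1 enzyme without overlap, at 5.26, 5.32 and 5.16 FPKM in Rongchang and 3.72, 4.85 and 3.74 FPKM in wild boar (−0.30). XYLT1 and the exostosin-like gene EXTL2 had differences of −0.31 and −0.30 with overlap. B3GAT3, the most abundant enzyme, stood at 29.5 ± 6.83 and 26.8 ± 4.65 FPKM (SD, n = 3 each). Among the carriers, AGRN, GPC1 and GPC3 had differences of −0.27, −0.27 and −0.26, all with overlap, and the neuronal syndecan SDC3, the most abundant, stood at 67.5 ± 6.04 and 62.5 ± 10.9 FPKM. The 3 tested nectin-like genes, adhesion molecules abundant at synapses and on axons, overlapped as well. CADM3 stood at 124 ± 27.7 and 101 ± 40.0 FPKM, CADM4 at 102 ± 5.60 and 91.3 ± 4.33, and CADM2 at 29.2 ± 12.9 and 24.1 ± 6.97, with differences of −0.34, −0.16 and −0.22. The CADM3 difference hung on single animals, at −0.64 without wild boar 2, where its unadjusted p was under 0.05, and −0.11 without wild boar 1.

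The receptors through which lymphocytes bind nectins and PVR were close to 0. PVRIG, an inhibitory receptor for nectin-2, was at 0.09 to 0.11 FPKM in Rongchang and 0.04 to 0.09 in wild boar. CD96 stood at 0.09, 0.02 and 1.29 FPKM in Rongchang against 0.22, 0 and 0 in wild boar, so 1 Rongchang animal alone was above 1 FPKM. CRTAM, the partner of CADM1, did not exceed 0.074 FPKM. These 3 did not reach the filter, and CD226 and TIGIT were not analysed here.

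Markers of epithelium and of lymphocytes were low in these brains, and their summed level was lower in every wild boar than in every Rongchang pig. Of the single markers, CDH1 and CD8A did not overlap between the breeds, while EPCAM, KRT8, CD3D, CD2 and MS4A1 did. Among all genes tested, 11.4% were lower in wild boar without overlap. The epithelial keratin gene KRT8 stood at 1.50, 1.23 and 1.39 FPKM in Rongchang against 1.26, 0.49 and 0.41 FPKM in wild boar. It was lowest in wild boar 2 and 3, the animals with NECTIN1 at 0, but the other epithelial markers did not share this order. CDH1 was no lower in wild boar 2 (0.824 FPKM) than in wild boar 1 (0.817). EPCAM was lower in Rongchang 1 (0.162 FPKM) than in wild boar 3 (0.195). The summed level of the 3 epithelial markers with a row (of 6 listed), EPCAM, KRT8 and CDH1, was 2.82 to 3.02 FPKM in Rongchang and 1.05 to 2.42 in wild boar, and none of them was at 0 in any of the 6 libraries. The sum of 4 lymphocyte markers (of 6 listed) was 2.26 to 3.65 FPKM and 1.10 to 2.01. Summed neuron markers overlapped, at 1702 to 2513 and 1634 to 2229 FPKM for 5 of 6 listed, as did astrocyte markers, at 964 to 1216 and 947 to 1210 for 5 of 6. Oligodendrocyte (4 of 6), microglia (4 of 6), endothelial (3 of 6), meningeal (4 of 5) and choroid plexus (2 of 6) sums overlapped too. Sums follow their most abundant genes, and single markers of these types could differ from them. The astrocyte marker ALDH1L1 stood at 7.73, 6.78 and 7.61 FPKM in Rongchang against 5.62, 3.83 and 2.84 FPKM in wild boar, a difference of −0.75 (limma, adjusted p = 0.766, unadjusted p = 0.0069). It did not overlap between the breeds and was lowest in wild boar 2 and 3, as KRT8 was. The oligodendrocyte marker CNP did not overlap either, at 177, 147 and 148 FPKM against 145, 100.2 and 111 FPKM. Both were picked with their values in view. The choroid plexus gene TTR stood at 34.2 FPKM in wild boar 3 and at 3.01 or less in the other 5 libraries, with 0.12 in wild boar 2. PRLR, the other choroid plexus marker with a row, was listed at 0 in 3 libraries. In tissue of mixed cells, fewer cells of a type and less RNA per cell cannot be told apart, and the part of these markers in the NECTIN1 values was not tested.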

How the data were processed

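The authors deposited 1 table of FPKM for 18225 Ensembl identifiers and 6 libraries. The unit is judged from the tools and the values, since the header gives none. TopHat2 2.0.11, Cufflinks 2.2.1 and Cuffdiff are named per the submitters' processing notes, without roles. The build, the annotation and the strand setting are unstated in the labels and headers, and coordinates are left out. Per the labels' protocols, the dUTP libraries were read as 100-bp pairs. Low values showed no shared step that would give relative depth.

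Symbols were matched for 10937 identifiers, and the row with the highest mean was used. Breeds were compared with limma 3.58.1 (R 4.3.3) on log2(FPKM + 1) with a mean-variance trend, for the 13152 genes that reached 1 FPKM in 3 or more libraries. Tests were two-sided, adjusted by Benjamini-Hochberg over all genes tested, with a threshold of 0.05, and the fit was tested on simulated data. NECTIN1 passed that filter through Rongchang alone. Members and lists were chosen with earlier results of these data known. All family members were named, with the 3 smallest p and the most abundant gene per list and the 5 genes most like NECTIN1. The 2 nearest genes matched by symbol on each side of a member were also named, with up to 5 genes at 0 in wild boar. A gene that this rule named is not reported here. Any other gene was picked with its values in view. The labels number the animals 1 to 3 in each breed. After subtracting breed means, libraries with the same number correlated at 0.28, 0.59 and 0.37, above the bound of 0.1. The labels do not explain the numbers. The main fit was therefore not paired, and the number entered as a block only in an alternative fit. Of the pairs with different numbers, Rongchang 1 with wild boar 3 also exceeded the bound, at 0.12. Printed p-values and intervals come from the fit without this block unless the block is named. P-values reflect the spread among these libraries.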

Additional observations from a re-analysis of the deposited data

How the results depend on the processing

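The analysis was repeated under 17 alternatives. NECTIN1 stayed lower in wild boar in each of them, with a difference of −2.27 at a pseudocount of 0.5, −3.88 at 0.1 and −1.79 to −1.54 when 1 library was left out. It was picked for its low wild boar values and its groups did not overlap. The kept sign therefore follows from that choice and is not a separate result. The genes called lower numbered 1, and 3 with a pseudocount of 0.1 and 3 without both libraries numbered 2. With 1 library left out they numbered 1 to 4, and those called higher 0 to 1. With the replicate number as a block, 1 gene was called lower and 0 higher, and the block changed no call of a gene or list named here. No member of a related list was called in limma under any of the 17. At an unadjusted p under 0.05 the 68 related genes gave 1 to 8, with 8 (7 lower) under library weights, 7 (6 lower) with the block, 7 (all lower) without both libraries numbered 2 and 1 to 7 with 1 library left out, and SSX2IP was among them in each except without wild boar 1. Over all genes that count was 789, and 2289 with the block, 1518 under library weights, 494 after median scaling or quantile normalization, and 472 to 1326 with 1 library left out. Median scaling turned the sign of NECTIN3 (0.045), AFDN (0.11), CADM4 (0.013), CDC42 (0.0275), B3GAT3 (0.042) and SDC3 (0.052), and quantile normalization that of NECTIN3 (0.044), AFDN (0.10), B3GAT3 (0.012) and SDC3 (0.035). NECTIN3 was also above 0 without both libraries numbered 2 (0.0305). Leaving out 1 library gave ranges that crossed 0 for NECTIN3 (−0.24 to 0.0024), AFDN (−0.19 to 0.052), CADM2 (−0.48 to 0.11), CDH2 (−0.20 to 1.88) and B3GAT3 (−0.29 to 0.0335). Of 28 named differences other than that of NECTIN1, 21 moved by over 1.5 times when 1 library was left out, CADM3 (−0.64 to −0.11) among them. SSX2IP, F11R, VAV2, HS3ST5, XYLT2, EXTL2 and CADM4 did not. With the block, the adjusted p of NECTIN3 was 0.704 (limma, 0.704 to 1 over all settings). The split of genes below 0 was 77.9% as reported and 46.4% after median scaling. Depth is unknown and limits what a 0 can say.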

Other observations

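A gene with a symbol that ran opposite to NECTIN1 was ZMAT5, a zinc finger gene of the minor spliceosome, chosen after its values were seen. It was listed at 0 in all 3 Rongchang libraries and stood at 0.83, 1.56 and 3.96 FPKM in wild boar 1, 2 and 3. It was 1 of 45 genes with a wild boar mean of at least 2 FPKM that were at 0 in 2 or more Rongchang libraries. The other 3 with a symbol (SNORA2C, SNORA9 and SNORA57) were small nucleolar RNA genes seen in wild boar 2 alone.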
